A study of Homo sapiens with 3 samples.

Results

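The BCL2 family was followed through 10 of its genes in PLC-PRF-5 cells, an established human hepatoma line: MCL1, BCL2, BCL2L1, BAX, BAK1, BID, BAD, BCL2L11, PMAIP1 and BBC3. All 24 probes that the platform annotation pairs with 1 of these symbols were taken, out of 47323 probes for 20046 named genes on an Illumina beadchip. Cells had received DMSO (the solvent control), sorafenib or the sorafenib probe for 24 h, with 1 array for each treatment. Sorafenib is a kinase inhibitor used against hepatocellular carcinoma, and the sorafenib probe is sorafenib carrying a photoaffinity group and a terminal alkyne. By the sample labels the dose was 10 μM, and by the treatment protocol 50 μM, and under either reading both compounds had 1 shared dose and time.

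The BCL2 family decides whether the outer membrane of the mitochondrion stays closed. Pro-survival members such as MCL1, BCL2 and BCL2L1 (BCL-XL) hold the executioners BAX and BAK1 in check, and BH3-only proteins such as BID, BAD, BCL2L11 (BIM), PMAIP1 (NOXA) and BBC3 (PUMA) either block the pro-survival members or activate the executioners directly. Once active, BAX and BAK1 form pores through which cytochrome c leaves the mitochondrion, and caspases follow. MCL1 is a short-lived protein on which many liver tumour cells depend. The arrays read RNA only, and protein levels, phosphorylation and cleavage of these members were not measured.

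Of the 8 members with a signal above background, BAX, the executioner that moves from the cytosol to mitochondria, stood highest relative to DMSO with both compounds, and both of its readable probes were higher. BAD, a sensitizer held by 14-3-3 proteins, was higher to a lesser extent, BCL2L1 and BID were lower on both readable probes, and MCL1 differed little. No member reached 2-fold in any comparison. With 1 array for each treatment no difference has a replicate check, no p-value can be given, and every difference below is set beside the same quantity over all genes instead. Both comparisons with DMSO use the same DMSO array.

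A probe was called above background where its detection p-value, the rank of its signal among the negative control probes of the array, was under 0.01. Levels are given as normalized intensity, which compares 1 probe across arrays and does not compare 1 gene with another. By the detection rule, 14 of the 24 member probes were above background on at least 1 array, 11 were above it on all 3 arrays, and 10 were above it on none. This left 8 of the 10 members, out of 10396 genes in all, and a gene is represented by its brightest probe. Mean background-subtracted intensity was 183 on the DMSO array, 159 on the sorafenib array and 164 on the sorafenib probe array, and 32.3% to 32.8% of all probes were above background. The brightness of the arrays thus differed, and with 1 array for each treatment an effect of treatment and one of the array cannot be told apart. The differences were also read without normalization between arrays, which leaves this shift in each of them.

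The hepatoma label was checked against marker genes. Of 8 hepatocyte and hepatoma markers only ALB, the gene of serum albumin, was above background, at 48.1 under DMSO, 38.7 under sorafenib and 49.6 under the sorafenib probe, whereas AFP, APOA1, APOB, TTR, SERPINA1, FGB and GPC3 were not above background on any array. The ALB values were not far above the lowest level counted as above background (34.8, 34.2 and 34.0 in the same order). These markers therefore hardly bear out the hepatoma label. All 4 markers of simple epithelium (KRT8, KRT18, EPCAM and CDH1) were above background. No endothelial marker of 3 was, the lysosomal gene CD68 was the only one of 3 annotated leukocyte markers, and the fibroblast collagen gene COL1A1 was above background on the sorafenib probe array alone. In such bulk RNA, fewer cells of a kind and less RNA per cell cannot be told apart.

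MCL1, the pro-survival member that binds BAK1, BIM and NOXA, had a pair of probes above background on every array. Its brighter probe read 217 under DMSO, 228 under sorafenib and 225 under the sorafenib probe, and the other read 73.3, 64.4 and 56.2 in the same order. The 3 values of the brighter probe were nearly level, whereas those of the dimmer probe were highest with DMSO and lowest with the sorafenib probe. On the log2 scale the brighter probe differed from DMSO by 0.07 with sorafenib and by 0.05 with the sorafenib probe, and the dimmer probe by -0.19 and -0.38. The sign for MCL1 therefore depended on the probe. It also depended on the normalization, since without any the brighter probe differed by -0.15 and -0.13, where all genes had medians of -0.19 and -0.16. Among 1760 genes within 0.5 log2 units of its brightness, 39.3% were at least as far above DMSO under sorafenib, and 41.5% under the sorafenib probe.

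BCL2, the founding member of the family, was not above background with any of its 4 probes. Their background-subtracted intensities ran from -11.8 to 12.7 over the 3 arrays, and the lowest detection p-value was 0.0429. The lowest normalized intensity that counted as above background was 34.8 on the DMSO array, 34.2 on the sorafenib array and 34.0 on the sorafenib probe array, so no level or difference can be given for BCL2 at this sensitivity.

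BCL2L1 encodes BCL-XL, which binds BAX, BAK1 and most BH3-only proteins. Its brighter probe read 2676 under DMSO, 2225 under sorafenib and 2231 under the sorafenib probe, and the DMSO array was the highest. The dimmer probe read 178, 165 and 131 and was likewise highest with DMSO. The log2 differences from DMSO were -0.27 under sorafenib and -0.26 under the sorafenib probe for the brighter probe, and -0.11 and -0.44 for the other. Both probes lay on the same side of DMSO with both compounds, which was the case (all 4 differences below 0) for 474 of 1979 genes with at least 2 such probes, or 24.0%. Of 352 genes of like brightness, 9.09% were at least as far below DMSO under sorafenib and 8.24% under the sorafenib probe. The difference of BCL2L1 was small in size but stood on a bright signal, where most genes differed little.

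**Figure D1:**
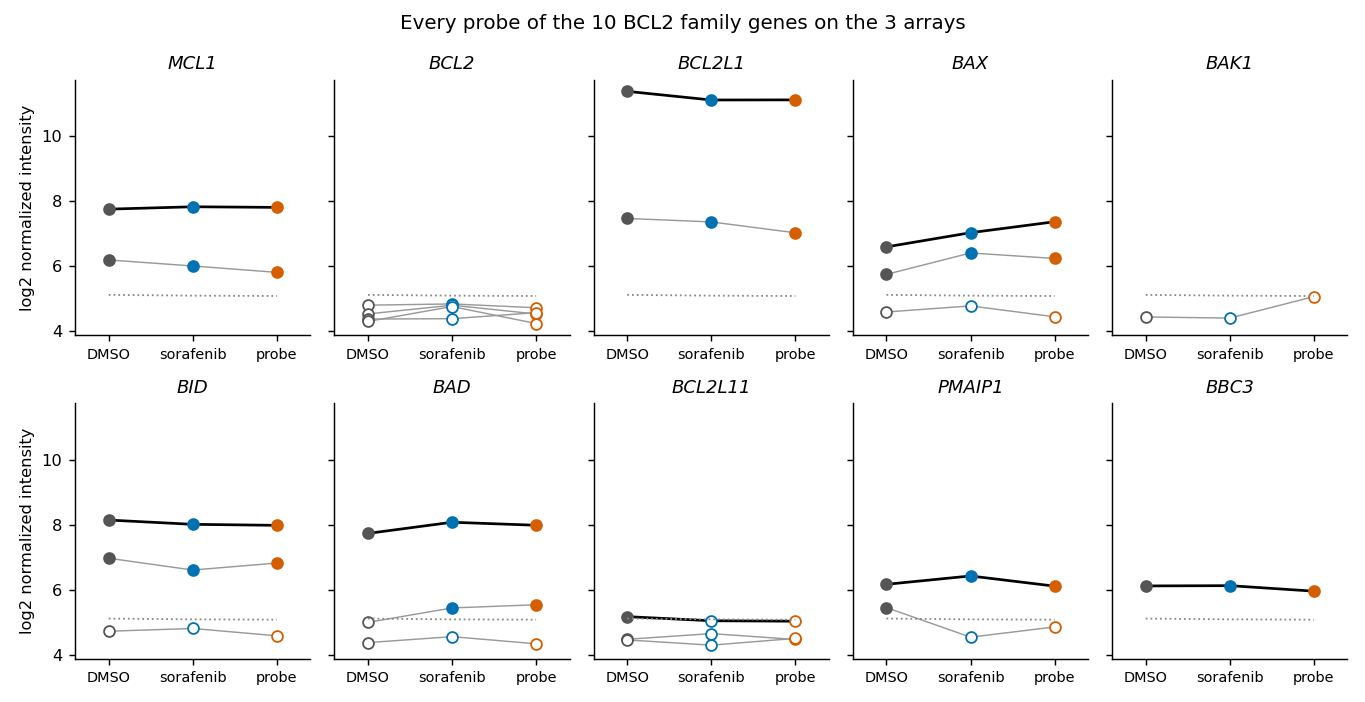
Each panel shows 1 of the 10 genes, with log2 normalized intensity on the vertical axis and the DMSO, sorafenib and sorafenib probe arrays on the horizontal axis. Each line is 1 probe (the thick line is the brightest), open points are not above background, and the dotted line is the lowest level above background. Both readable BAX probes lie above their DMSO value on both compound arrays, whereas the 4 BCL2 probes and the BAK1 probe are open on every array.

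BAX, the first of the executioners, was the member farthest from DMSO. Its brightest probe read 96.9 under DMSO, 131 under sorafenib and 166 under the sorafenib probe. The second probe read 53.9, 85.1 and 75.7, and the remaining probe was not above background on any array. In both readable probes the DMSO array was the lowest, while the compound with the highest value differed between the probes. On the log2 scale the brightest probe was 0.44 above DMSO under sorafenib and 0.77 under the sorafenib probe, and the second probe was 0.66 and 0.49 above. These are folds of 1.35 and 1.71 for the brightest probe and of 1.58 and 1.40 for the second. All 4 differences were above 0, as they were for 368 of the 1979 genes with at least 2 such probes (18.6%), and the smallest of the 4 was matched or passed by 16 of these genes (0.808%), BAX included.

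By its brightest probe, BAX lay among the upper genes of the whole array. With sorafenib 8.21% of all genes and 6.41% of the 1857 genes of like brightness were at least as far above DMSO, and with the sorafenib probe 1.55% and 0.915% were. BAX is singled out as the member farthest from DMSO, and neither these shares nor those given above for its pair of probes allow for that choice. Under the 8 alternative ways of processing the arrays, BAX stayed above DMSO, by 0.24 to 0.55 with sorafenib and by 0.60 to 0.89 with the sorafenib probe. Those that change only the limit on detection repeat its main value and are no check of the sign. The low ends of both ranges are the values without normalization between arrays, where the median of all genes was itself below 0.

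The 250 bases before the annotated start of BAX are printed because BAX was the member farthest from DMSO, with those of BAD and BCL2L1, which lay to either side of DMSO, for contrast. All are from RefSeq on GRCh38.p14, 5′ to 3′ on the strand of the gene: BAX at chr19:48954625-48954874 on the plus strand, BAD at chr11:64284705-64284954 and BCL2L1 at chr20:31723964-31724213, both on the minus strand. Capitals mark CACGTG, the E-box bound by MYC and related factors, and CCAAT, the box bound by NF-Y, on either strand (ATTGG is CCAAT on the other strand).
BAX: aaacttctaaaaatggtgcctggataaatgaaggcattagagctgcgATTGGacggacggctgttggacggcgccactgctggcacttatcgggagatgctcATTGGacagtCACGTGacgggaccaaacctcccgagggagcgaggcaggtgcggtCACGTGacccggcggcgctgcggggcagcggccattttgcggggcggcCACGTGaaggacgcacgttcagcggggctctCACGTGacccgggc
BAD: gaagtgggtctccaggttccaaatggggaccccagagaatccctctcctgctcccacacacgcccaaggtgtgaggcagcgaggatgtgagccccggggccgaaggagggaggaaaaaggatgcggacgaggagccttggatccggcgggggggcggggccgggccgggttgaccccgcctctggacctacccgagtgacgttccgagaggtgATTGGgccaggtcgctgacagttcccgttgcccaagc
BCL2L1: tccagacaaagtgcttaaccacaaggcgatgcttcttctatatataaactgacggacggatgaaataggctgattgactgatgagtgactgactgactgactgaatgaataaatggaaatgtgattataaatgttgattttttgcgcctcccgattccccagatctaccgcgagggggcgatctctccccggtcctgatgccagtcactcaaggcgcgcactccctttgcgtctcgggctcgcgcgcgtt
The BAX window held CACGTG 4 times and CCAAT 2 times. CACGTG was in 6.34% of 35116 RefSeq windows of the same length, and 0.0142% of them held it at least 4 times. The latter share was worked out for CACGTG alone of the motifs searched, and for the member picked as farthest from DMSO. It makes no allowance for these choices, and a link between the motif and the RNA level was not tested. The BAD window held CCAAT once and no CACGTG, and the BCL2L1 window held neither.

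The promoter table matched 9 of the 10 members, and 6 motifs in all were searched in it on both strands, and no motif contains another. The CCAAT box was in 5 of the 9 windows (BAX, BAK1, BAD, BCL2L11 and BBC3) against 32.0% of all windows, and GGGCGG, the GC box bound by SP1, in 5 of 9 (BAX, BAK1, BAD, BCL2L11 and PMAIP1) against 42.6%. BBC3 was the only other member with CACGTG, at 1 match. TGTTTAC, a FOXO site, was in BCL2L11 alone against 2.98% of all windows, TGATGNAA, the composite site of ATF4 and CHOP, was in 0 of 9 against 3.14%, and the p53 half-site was in BAK1 alone against 5.57%. A match describes letters in the window, and binding was not measured.

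BAK1, the executioner that sits in the mitochondrial outer membrane, had 1 probe, which was not above background. Its background-subtracted intensity was 1.0 under DMSO, -0.8 under sorafenib and 16.6 under the sorafenib probe, with detection p-values of 0.408, 0.521 and 0.0182. The sorafenib probe array was the highest and came nearest to the limit without passing it. Of the executioners, only BAX was therefore readable.

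BID links death receptors to mitochondria, since caspase cleavage turns it into an activator of BAX and BAK1. Its brightest probe read 285 under DMSO, 260 under sorafenib and 254 under the sorafenib probe, and its second probe read 126, 98.0 and 114. DMSO was the highest array for both probes, and the remaining probe was not above background. The log2 differences from DMSO were -0.13 and -0.16 for the brightest probe and -0.36 and -0.15 for the second, with sorafenib and the sorafenib probe in that order. Of 1682 genes of like brightness, 29.1% and 25.4% were at least as far below DMSO, so that BID was in the ordinary range of its neighbours.

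BAD neutralizes BCL-XL and BCL2 once survival kinases no longer phosphorylate it. Its brightest probe read 214 under DMSO, 272 under sorafenib and 255 under the sorafenib probe, and the DMSO array was the lowest. A second probe read 32.1, 43.6 and 46.7 and was above background with the compounds only, and the remaining one was above background on no array. The brightest probe was 0.34 above DMSO under sorafenib and 0.25 under the sorafenib probe on the log2 scale. The second probe was at least 1.25-fold above DMSO under sorafenib and at least 1.34-fold under the sorafenib probe, each a bound set by the lowest level above background on the DMSO array. Of 1719 genes of like brightness, 9.48% and 17.4% were at least as far above DMSO as the brightest BAD probe, for sorafenib and the sorafenib probe.

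BCL2L11, which encodes the activator BIM, was close to the detection limit with its only readable probe of 3. That probe read 36.3 under DMSO, 33.2 under sorafenib and 32.9 under the sorafenib probe and was above background with DMSO only, at a detection p-value of 0.0078 against 0.0143 and 0.0221. The values on the 3 arrays were nearly level, and DMSO was at least 1.06-fold and 1.07-fold above sorafenib and the sorafenib probe. Of 2196 genes of like brightness, 39.5% were at least as far below DMSO under sorafenib and 37.9% under the sorafenib probe.

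PMAIP1 encodes NOXA, a BH3-only protein that binds MCL1 and hastens its breakdown. Its probes ran apart. The brighter one read 72.3 under DMSO, 86.4 under sorafenib and 69.5 under the sorafenib probe, so that sorafenib was the highest array. The dimmer one read 44.0 with DMSO, where alone it was above background, against 23.4 under sorafenib and 29.1 under the sorafenib probe. In log2 units the brighter probe was 0.26 above DMSO under sorafenib and differed by -0.06 under the sorafenib probe, whereas by the dimmer probe DMSO was at least 1.28-fold above sorafenib and at least 1.29-fold above the sorafenib probe. No direction can thus be given for PMAIP1 with sorafenib, where the mean of its probes was -0.33 from DMSO, with the dimmer probe at its measured value and not its bound. Which transcripts each probe reads was not analysed here.

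BBC3 encodes PUMA, a BH3-only protein that p53 and FOXO factors are known to induce. Its single probe read 69.8 under DMSO, 70.2 under sorafenib and 62.4 under the sorafenib probe. The first 2 were nearly level and the sorafenib probe array was the lowest. The log2 differences from DMSO were 0.01 and -0.16, and 47.1% and 31.4% of 2056 genes of like brightness were at least as far in the same direction.

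**Figure D2:**
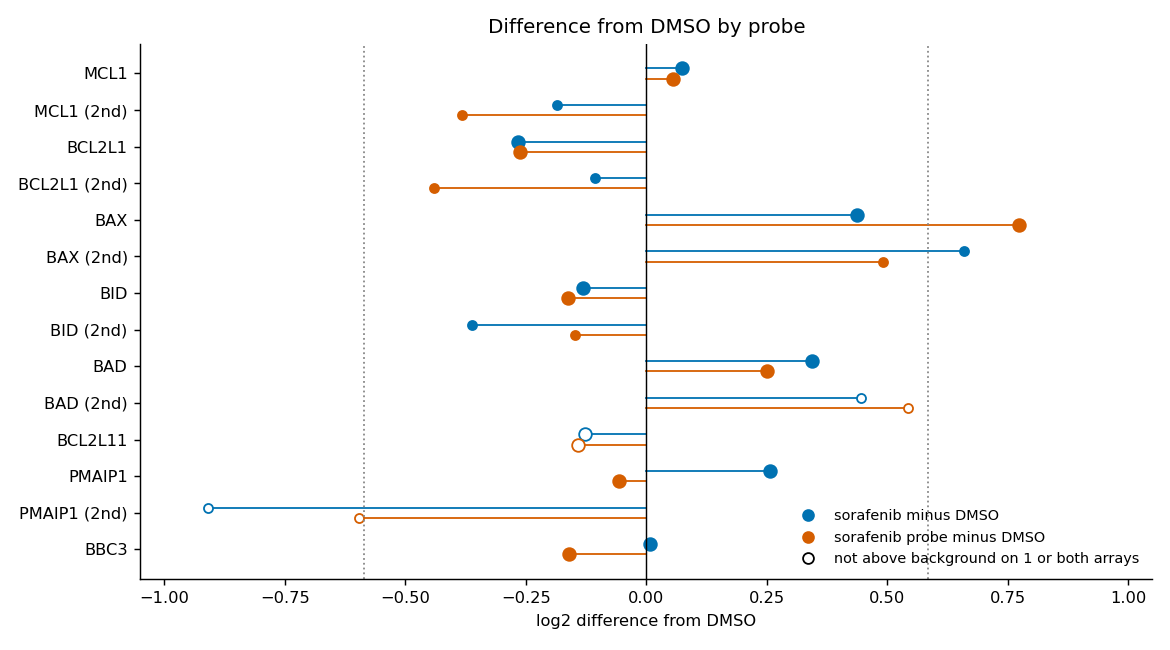
The log2 difference from DMSO (horizontal axis) is drawn for each of the 14 member probes above background on at least 1 array, with sorafenib in blue and the sorafenib probe in orange. Large points are the brightest probe of a gene, open points rest on an array where the probe was not above background, and dotted lines mark 1.5-fold. The BAX probes lie at 0.44 to 0.77 on the right, and the probes of MCL1 and of PMAIP1 fall on both sides of 0 with sorafenib.

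Counted over the members by their brightest probe, 0 of 8 were at least 2-fold higher and 0 at least 2-fold lower with sorafenib than with DMSO, against 0.164% and 0.115% of all 10396 genes. The same counts with the sorafenib probe were 0 and 0, against 0.25% and 0.164%. At 1.5-fold, 0 members passed with sorafenib (2.15% of all genes were higher and 1.94% lower), and 1 member, BAX, was higher with the sorafenib probe (2.31% of all genes) and 0 were lower (1.98%). The single member past 1.5-fold is no result about the family. With sorafenib 5 members were above DMSO and 3 below it, with a median log2 difference of 0.04, and with the sorafenib probe 3 were above and 5 below, with a median of -0.10. The medians of all genes were -0.00 in both. Without normalization between arrays, 3 members were above DMSO and 5 below under sorafenib, and 2 above and 6 below under the sorafenib probe, at medians of -0.14 and -0.23, since MCL1 (both compounds) and BBC3 (sorafenib) turned their sign. The pro-survival, executioner and BH3-only members did not move as 1 block.

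**Figure D3:**
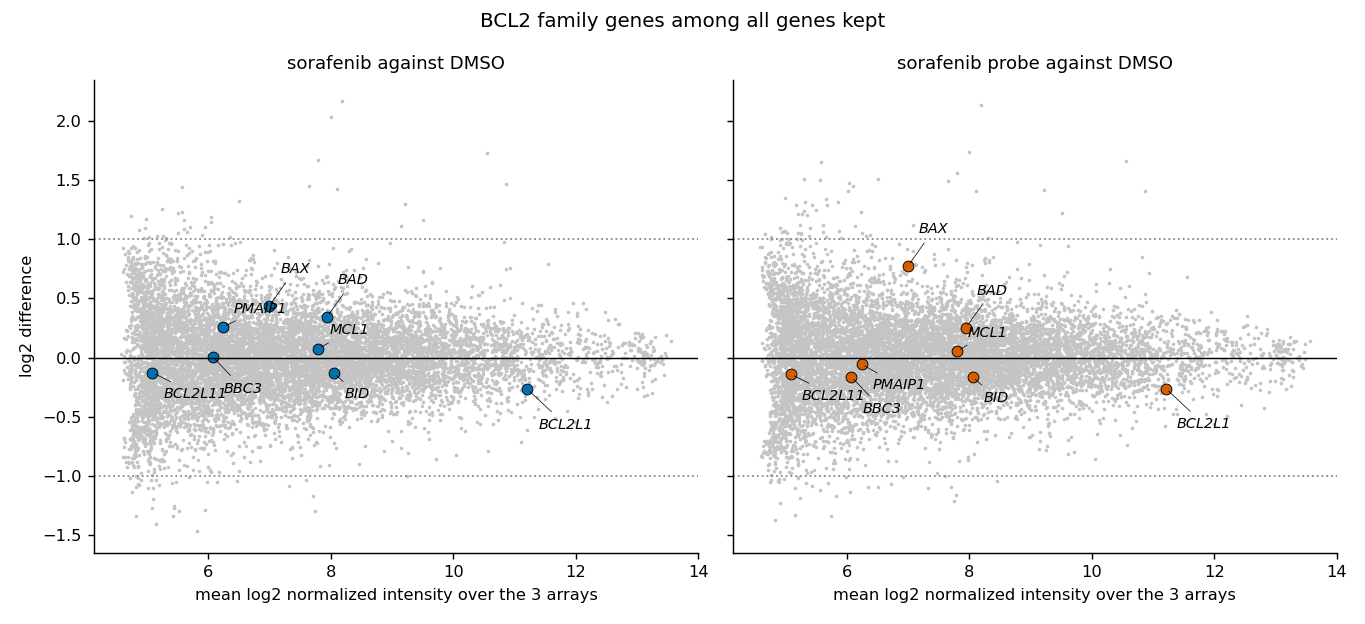
Each grey point is 1 of 10396 genes and each coloured point 1 of the 8 readable members, with the mean log2 normalized intensity over the 3 arrays on the horizontal axis and the log2 difference from DMSO on the vertical axis (dotted lines at 2-fold). All members lie inside the 2-fold lines, and BAX with the sorafenib probe (0.77) is the farthest from 0.

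The sorafenib probe differs from sorafenib by the photoaffinity group and the alkyne, and the members were compared between them directly. No member of 8 was 2-fold higher or lower with the sorafenib probe than with sorafenib (0.0192% and 0.0289% of all genes), and none was 1.5-fold higher or lower (0.712% and 0.529%). BAX by its brightest probe was 0.34 higher with the sorafenib probe on the log2 scale, and PMAIP1 was 0.31 lower by its brighter probe. The second BAX probe had the opposite sign (-0.17), as had the dimmer PMAIP1 probe (0.31), which was above background with neither compound. With 1 array a compound the interval of a difference cannot be given. For scale, the middle 95% of genes of like brightness ran from -0.39 to 0.40 around BAX and from -0.49 to 0.49 around PMAIP1, so both differences lay within the range of their neighbours. MCL1 (-0.02), BCL2L1 (0.00), BID (-0.03), BAD (-0.09), BCL2L11 (-0.01) and BBC3 (-0.17) differed less on the log2 scale. Over the 8 members 2 were higher and 6 lower, with a median of -0.03. The split was 3 to 5 without normalization, where MCL1 turned its sign (0.01), and 4 to 4 both with median scaling and with the mean of each gene's probes. Equal action of both compounds on the family is not shown by these values.

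Beyond the 10 members, 6 of 11 further relatives in the BCL2 family were above background on at least 1 array. With sorafenib 3 were above DMSO and 3 below, with a median of 0.04, and with the sorafenib probe 4 were above and 2 below, with a median of 0.29. The latter rests on HRK and BCL2L14, which were not above background with DMSO, and with such genes at their bounds the medians were 0.14 under sorafenib and 0.06 under the sorafenib probe. Without normalization they were -0.17 and 0.12. None reached 1.5-fold once the bounds of dim probes were taken. Genes named here and in the next paragraphs were chosen after their values were seen, and the values are those of the brightest probe. BCL2L2, the pro-survival BCL-W, read 186 under DMSO, 205 under sorafenib and 260 under the sorafenib probe. HRK, a BH3-only gene, read 22.3, 38.9 and 36.8 and was above background with the compounds only, at bounds of 0.16 and 0.08 above DMSO on the log2 scale. The 4 genes of the BNIP group, named for their interaction with BCL2 or its viral counterpart, had medians of -0.14 and -0.13. With the mean of each gene's probes the medians were -0.24 under sorafenib and -0.03 under the sorafenib probe. In that setting 2 of these genes were above DMSO and 2 below under the sorafenib probe. BNIP3, a mitophagy receptor that hypoxia is known to induce, read 996, 800 and 864.

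Genes that act downstream of the pores differed by small amounts. Of the apoptosome and effector caspase list 4 of 6 were readable, 1 above and 3 below DMSO with each compound, at medians of -0.12 under sorafenib and -0.22 under the sorafenib probe (0 above and 4 below under sorafenib without normalization or with the mean of the probes). CASP6, an effector caspase, read 175 under DMSO, 129 under sorafenib and 139 under the sorafenib probe, and APAF1, the scaffold of the apoptosome, read 146, 125 and 117. By these brightest probes DMSO was the highest array for both genes. A dimmer CASP6 probe above background on all arrays read 54.7, 51.0 and 55.8, with the sorafenib probe array the highest. The remaining CASP6 probe was above background with DMSO only. The IAP proteins, which inhibit caspases, and their antagonists were split 3 to 3 with each compound over 6 readable genes of 8 (1 to 5 without normalization). DIABLO, which is released with cytochrome c and displaces IAPs, read 1199, 1352 and 1401.

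Upstream of BID, 5 of 9 death receptor genes were readable, with medians of -0.16 under sorafenib and -0.05 under the sorafenib probe, and of 0.12 and -0.02 with the mean of each gene's probes, so that the sign under sorafenib depended on the probe. TNFRSF10B, the TRAIL receptor DR5, read 1070 under DMSO, 951 under sorafenib and 1012 under the sorafenib probe by its brightest probe. A dimmer probe above background on all arrays went the other way at 45.4, 53.2 and 63.8, as did the remaining one, which was above background with the compounds only, so no direction can be given for TNFRSF10B. Of the outer membrane partners all 4 were below DMSO with both compounds, at medians of -0.23 and -0.16, among them TMBIM6, an inhibitor of BAX-driven death, at 2178, 1686 and 1907. All 4 stayed below with median scaling and without normalization. In those settings the medians of all genes were below 0 too, so they could hardly turn the sign. VDAC2, a channel that holds BAK1, was above background with DMSO only.

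Of the genes that set the turnover of MCL1, under sorafenib 5 of 6 readable genes were above DMSO, with a median of 0.26, whereas with the sorafenib probe 2 were above and 4 below, with a median of -0.00, and all 6 were lower with the sorafenib probe than with sorafenib (5 of 6 with median scaling, without normalization or with the mean of each gene's probes). USP9X, which removes ubiquitin from MCL1, read 436 under DMSO, 543 under sorafenib and 435 under the sorafenib probe. FBXW7, a ubiquitin ligase subunit that marks MCL1, read 95.5, 132 and 111 by its brightest probe, but another probe above background on all arrays read 63.9, 47.3 and 48.8, with DMSO the highest. The second probe of the ubiquitin ligase gene MARCHF5 also went against the brightest under sorafenib, at -0.41 against 0.39 from DMSO on the log2 scale. With the mean of each gene's probes 4 genes of this list were above DMSO under sorafenib, with a median of 0.12, so its count depended on the choice of probe. BTRC, another ligase subunit, read 57.1, 46.1 and 29.2 and was not above background with the sorafenib probe. BTRC was 1 of 2 genes on these lists past 1.5-fold, at a bound of -0.75 log2 units from DMSO with the sorafenib probe. Both were lower, where 1.98% of all 10396 genes were at least 1.5-fold lower with the sorafenib probe, and the 2 genes are no result about the lists. Without normalization the medians of the list were 0.08 and -0.16. The difference between the compounds was not tested for it.

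The other was YWHAG, a 14-3-3 protein of the kind that holds phosphorylated BAD in the cytosol. It read 1038 under DMSO, 719 under sorafenib and 641 under the sorafenib probe, which is -0.53 and -0.70 on the log2 scale. Of the 9 binders of BAD and BIM, 7 were below DMSO under sorafenib and 6 under the sorafenib probe, at medians of -0.18 and -0.15. Without normalization, or with median scaling, 8 were below with each compound, but there the medians of all genes were below 0 as well. With the mean of each gene's probes 6 were below under sorafenib and 5 under the sorafenib probe, at medians of -0.04 and -0.12. DYNLL2, a dynein light chain, went the other way at 258, 320 and 362. The transcription factors known to act on BH3-only genes were above DMSO in 4 of 4 readable genes with each compound, at medians of 0.13 under sorafenib and 0.36 under the sorafenib probe. With median scaling, and likewise without normalization, the split under sorafenib was 2 to 2, whereas all 4 were still above DMSO under the sorafenib probe. DDIT3, the stress factor CHOP, read 49.1, 50.4 and 67.9, and ATF4 read 3676, 4430.5 and 4578, with DMSO the lowest array for both.

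**Figure D4:**
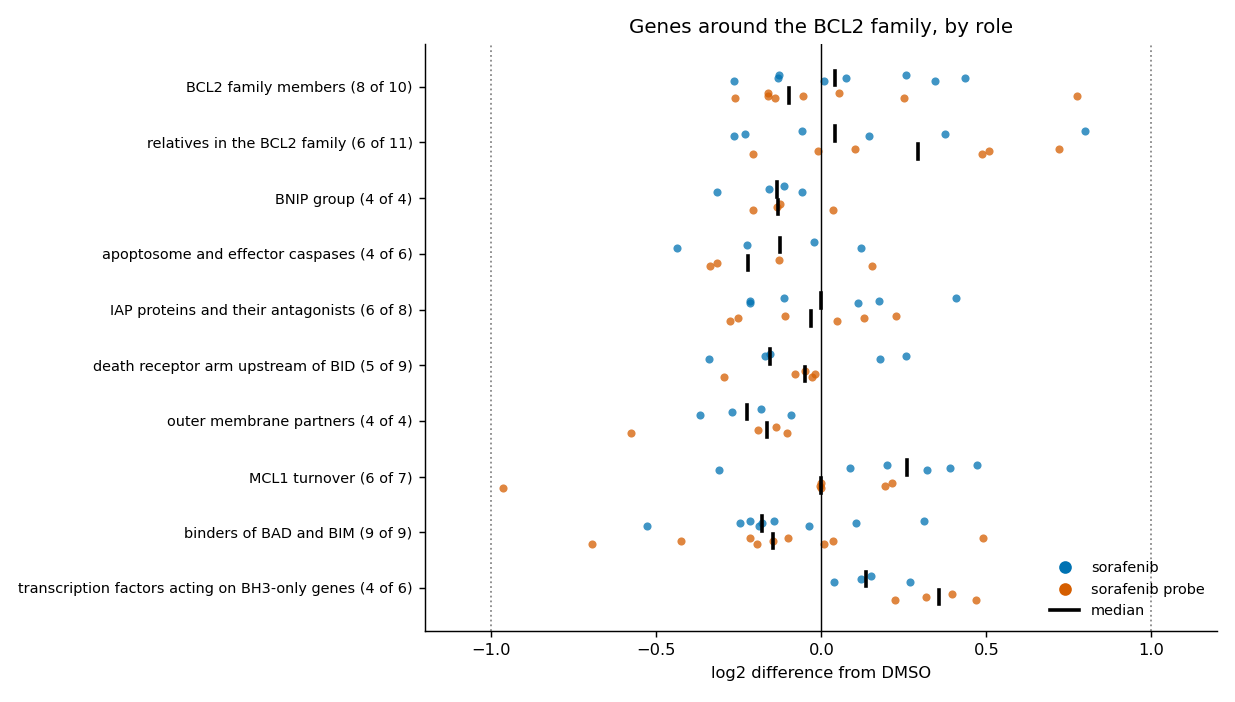
Each row is 1 gene list with its readable genes of those listed, each point 1 gene at its measured log2 difference from DMSO (horizontal axis, dotted lines at 2-fold), sorafenib in blue above and the sorafenib probe in orange below, and each black bar the median. The MCL1 turnover list has its bars at 0.26 and -0.00, and all 4 transcription factors lie right of 0, which under sorafenib became 2 of 4 with median scaling or without normalization.

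The genes whose pair of differences was most like that of MCL1, by Euclidean distance over the 2 comparisons with DMSO among 3408 genes of near brightness, were FLVCR2 (distance 0.00476), ABRAXAS2 (0.00551) and GTF3C1 (0.00924). All lay within 0.1 log2 units of DMSO, as many genes do. For BAX, among 3773 such genes, they were ANGPTL4 (0.0161), a secreted inhibitor of lipoprotein lipase, IGFBP2 (0.0512), which binds insulin-like growth factors, and SCCPDH (0.0552). ANGPTL4 was 0.44 above DMSO under sorafenib and 0.79 under the sorafenib probe, IGFBP2 was 0.43 and 0.72 above, and SCCPDH was 0.38 and 0.79 above. The likeness rests on only 2 values a gene that share the DMSO array.

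**Figure D5:**
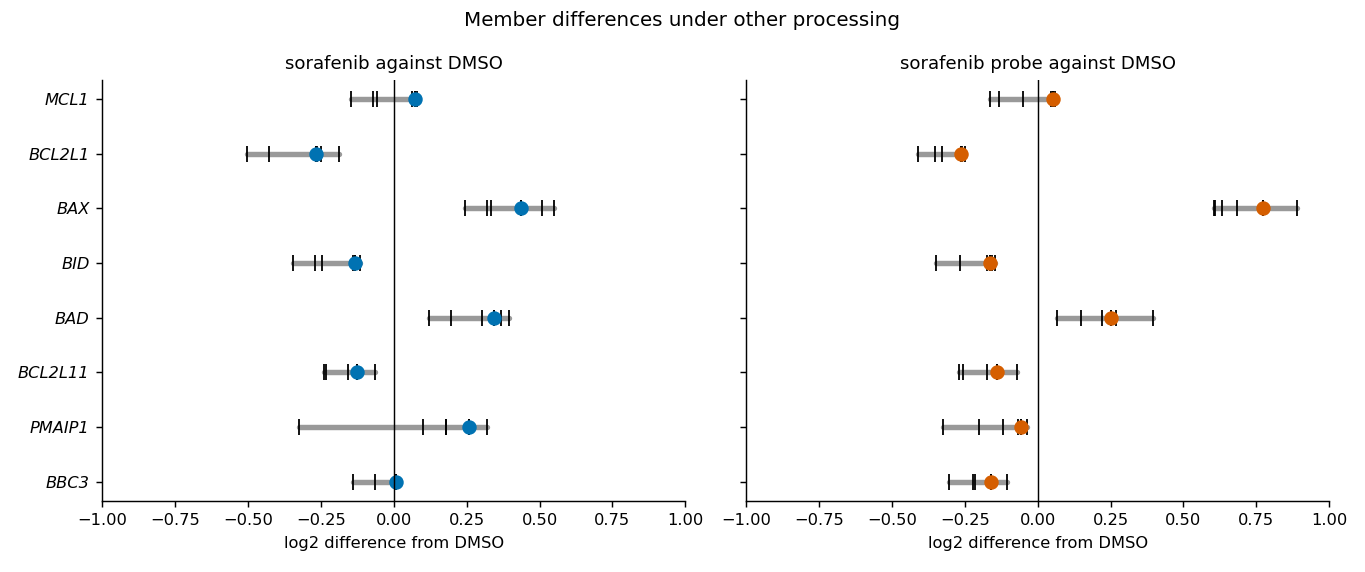
Coloured points are the log2 differences from DMSO (horizontal axis) of the 8 readable members, black ticks the values under the alternative ways of processing, and grey bars their range. BAX and BAD stay right of 0 and BCL2L1 and BID left of 0 with both compounds, whereas MCL1 crosses 0 in both panels and PMAIP1 and BBC3 with sorafenib.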

How the data were processed

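RNA of PLC-PRF-5 cells had been hybridised to an Illumina beadchip (3 arrays, 1 for each treatment). The authors deposited a quantile normalized intensity table with a detection p-value for every probe and array, and a second intensity table, background-subtracted but not normalized between arrays. The intensities of the second and the detection p-values of the first were used here. Scanner software, the authors' normalization method and the array's genome build: not given in the sources used here. Background was modelled by normexp from the detection p-values, an offset of 16 was added, arrays were quantile normalized, and log2 values were taken (limma 3.58.1, R 4.3.3). Through this offset the dimmer a gene, the more its difference shrinks. Python 3.11.15 and pandas 2.3.3 did the rest. A detection p-value under 0.01 on at least 1 array kept 17427 probes, and the brightest kept probe stood for a gene. The annotation gave 1 gene symbol to 30113 probes, of which 99.9% matched RefSeq's GRCh38.p14 table. A bound replaces a difference when 1 of the arrays compared lacks signal above background: the dim value is then raised to the lowest detected level of its array. The rule for named genes took the 10 members, the 3 genes most like MCL1 and most like BAX, and list genes at least 1.5-fold from DMSO in the same direction under both compounds or 2-fold in any comparison. No list gene met it, and the list genes in the text stand outside the rule, picked with their values known. The members and lists were chosen with earlier results of these data known. The steps were tested on simulated data. No test between groups was possible, and the number of arrays limits precision.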

Additional observations from a re-analysis of the deposited data

Results flagged for a closer look

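PMAIP1 differed from DMSO by 0.26 with sorafenib and by -0.06 with the sorafenib probe on the log2 scale, and BBC3 by 0.01 and -0.16. Both were singled out because, by the brightest probe, the 2 compounds lay on opposite sides of DMSO. For PMAIP1 the mean of its probes was -0.33 from DMSO with either compound. This mean takes the dimmer probe at its measured values, which were not above background with either compound. For BBC3 the difference with sorafenib was -0.06 with median scaling and -0.14 without normalization. Under the settings named for its own gene, each compound lay below DMSO. PMAIP1 with sorafenib stayed above DMSO with median scaling (0.18) and without normalization (0.10). BBC3 with sorafenib stayed at 0.01 with the mean of the probes. Each side is 1 array, and the difference between the compounds was not tested.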

How the results depend on the processing

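Of 84 summary values (counts and medians of the members) under the alternatives, 5 moved. At 1.5-fold in place of 2-fold, 1 member (BAX) was higher with the sorafenib probe. The median of the members with sorafenib was -0.0666 with median scaling, -0.14 without normalization and -0.0918 with the mean of the kept probes, and with the sorafenib probe it was -0.23 without normalization. All genes had medians of -0.11 and -0.07 with median scaling and of -0.19 and -0.16 without normalization. Of 189 single member differences under 8 alternatives, 173 had the sign reported and 16 the other, up to 0.33 in size (PMAIP1 with sorafenib, by the mean of its probes). All 16 came from median scaling, no normalization between arrays or the mean of the kept probes. With the authors' quantile normalized table, an offset of 50 and the limits on detection, no sign turned. Limits on detection repeat the main value of every member they keep from the 8, so no sign could turn there. A detection limit of 0.05 brought in BCL2 and BAK1, and detection on all 3 arrays left out BCL2L11. BAK1 passed the looser limit on the sorafenib probe array alone. Its measured 0.63 above DMSO there rests on a DMSO value not above background (detection p-value 0.408) and is not a bound. No paired analysis was possible because each treatment has 1 array and the labels give no replicate numbers, and for the same reason no array could be left out. The settings of the other gene lists (scaling, mean of the probes, bounds of dim probes) were chosen after seeing the data.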
